A study of Mus musculus with 20 samples.

Results

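The genotype difference common to both atria of adult Pitx2c heterozygous mice was measured as the difference between all heterozygous and all wild-type arrays, with the side of the heart as a covariate. It uses 20 of the 20 arrays of the study, 10 heterozygous (het) and 10 wild-type (wt). All animals were CD1 mice, an outbred strain, aged 12 weeks: 5 carried 1 changed Pitx2c allele and 5 were wild-type littermates. Left and right atrial appendages (LA and RA) were taken from each animal, giving 4 groups of 5 arrays, and no group had any other allele or treatment in the labels. The labels do not give the construction of the Pitx2c allele, and they do not say which LA and RA arrays came from the same mouse. The 20 arrays were therefore compared as if independent, although they stand for 10 animals, so p-values of the common effect are too small for any gene whose level is shared by the atria of an animal.

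Pitx2c is a homeodomain transcription factor that gives the left side of the embryonic heart its identity and stays on in the left atrium of adults. The right atrium expresses little Pitx2c after birth. The comparison asks which transcripts differ with genotype on both sides.

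Total RNA was hybridised to Illumina bead arrays of 45281 probes, of which each array detected between 17316 and 19422, and 20097 probes for 11154 named genes were tested. Pairs of arrays correlated between 0.948 and 0.99. The atrial cardiomyocyte markers Nppa, Myl7, Myl4 and Sln were detected on every array. Markers of other tissues varied between arrays. The signal of Myl2, the ventricular myosin light chain, ranged from 6.9 to 33896.9. Ucp1, a protein of brown fat, had a signal over 100 on 4 arrays, all heterozygous: LA het 1, LA het 2, LA het 4 and RA het 1. Values without these 4 arrays are given beside the main gene groups. On the 16 arrays left, 3.11% of all genes had an unadjusted p under 0.05 with a higher mean and 2.24% with a lower mean. The LA het group then holds only LA het 3 and LA het 5. Effects of the smaller group and of the tissue on the arrays left out cannot be told apart in these values.

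No probe passed the test for a genotype difference common to both atria. Of the 20097 probes, 0% had an adjusted p under 0.05, and the smallest adjusted p was 0.123 (limma with Benjamini-Hochberg adjustment). At an unadjusted p under 0.05 there were 1346 probes, or 6.7%, where 5% would have such a p with no difference at all. Of these, 774 had a higher mean in the heterozygotes and 572 a lower mean. On the level of genes, 517 of 11154 (4.64%) had such a p with a higher mean in the heterozygotes and 309 (2.77%) with a lower mean. These shares are the background for each gene group described here. The median log2 difference over all genes was 0.0064, a signed value in which rises and falls cancel, so it does not measure size. Among genes at an unadjusted p under 0.05 the median absolute log2 difference was 0.288. The median standard error of a probe was 0.113, and 31 genes differed by more than 2-fold.

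Of the 20 probes of smallest p, 13 had a negative difference, that is a lower mean in the heterozygotes. All 20 had the same sign in LA and RA, which the ranking by the common difference favours. Within a single side, 0.00995% of probes passed the test in LA (2 probes), 0.00995% in RA (2 probes), and 0.00995% for the difference between the sides (2 probes). Across the 20097 probes, LA and RA differences were correlated at 0.229 (Pearson) or 0.178 (Spearman), a description only, since both sides come from the same mice and share the array platform. Genotypes without overlap in both atria were found for 0% of probes in the higher direction and for 0.00498% in the lower direction, that is 1 probe. It belongs to Zfp36l1, an RNA-binding protein that promotes decay of AU-rich messages, with a log2 difference of -0.19 (SE 0.053, adjusted p = 0.427). Its signals were 4164.7, 4550.5, 4375, 4354.6 and 4466.1 in LA het against 5211.7, 5096.1, 4985.1, 5353.4 and 4596 in LA wt. In RA they were 4825.9, 5020.4, 5408.8, 4426 and 5421.8 in het against 5522.8, 5494.5, 5634.6, 6122.9 and 5642.4 in wt. The gap between genotypes was narrow on both sides, and 0 probes separated all 10 heterozygous from all 10 wild-type arrays. Zfp36l1, like Dsg2 below, lies outside the rule for named genes and was chosen after its values were seen.

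**Figure D1:**
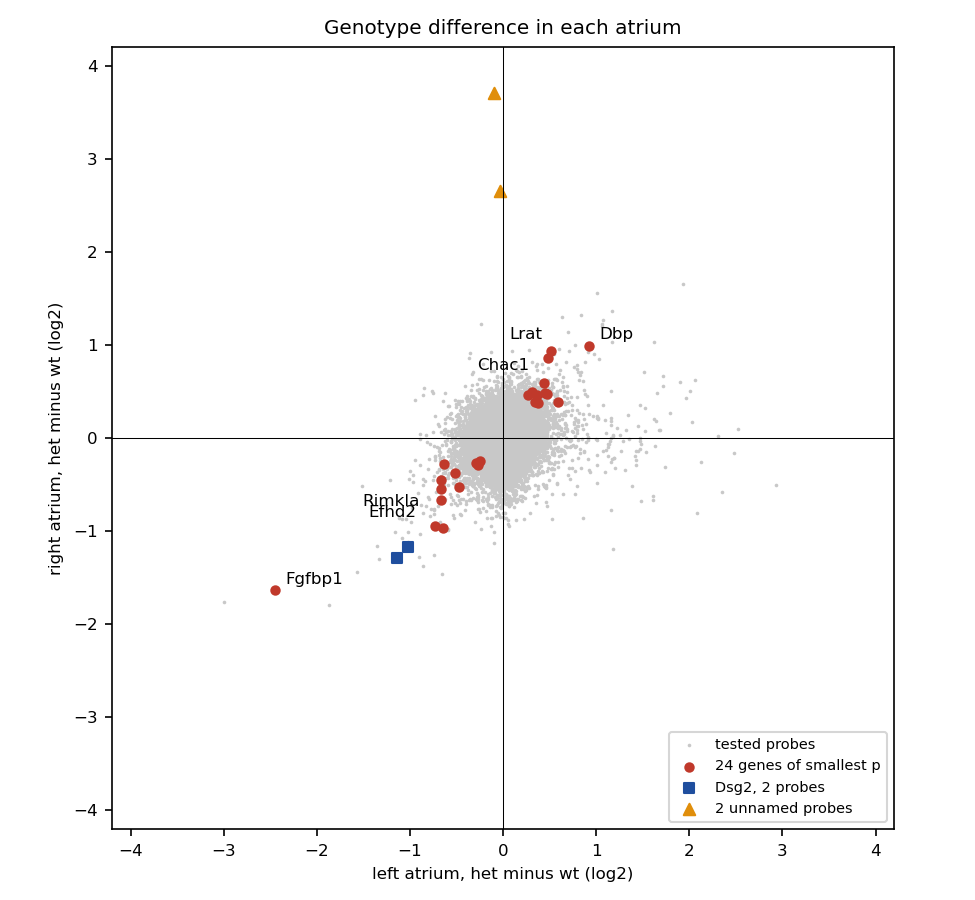
Heterozygous minus wild-type log2 difference in the left atrium (horizontal axis) against the right atrium (vertical axis) for the 20097 tested probes, each a grey point. The 24 genes of smallest p lie along the diagonal, with Fgfbp1 at -2.45 in LA and -1.63 in RA, while 2 unnamed probes lie near 0 in LA and at fitted values of 3.71 and 2.65 in RA.

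The 2 smallest p-values of the whole table belonged to probes of Dsg2, which encodes desmoglein 2, the desmosomal cadherin that couples cardiomyocytes mechanically. For probe ILMN_1242566 the signals were 182.1, 359.3, 117.8, 128.5 and 193.1 in LA het and 94.7, 159.6, 137.6, 313.7 and 246.7 in RA het. The wild-type arrays gave 431.8, 309.3, 444.1, 375.3 and 375.1 in LA and 364.4, 441.7, 418.3, 407.8 and 445 in RA. In RA all heterozygous arrays lay below all wild types, with RA het 4 the highest of them, and in LA all but LA het 2 did. The log2 difference was -1.09 (SE 0.18, adjusted p = 0.123), with -1.02 in LA and -1.17 in RA. Probe ILMN_2955047 had a log2 difference of -1.22 (SE 0.22, adjusted p = 0.159), and here too LA het 2, at 154.6, overlapped its side's wild types (lowest 146.9), while RA het 4, at 156.4, was the highest RA het array and below all RA wild types (lowest 169.1). The other Dsg2 probes had smaller differences: the brightest, ILMN_1221153, gave -0.34 (SE 0.095, adjusted p = 0.427) and ILMN_1215475 gave -0.17 (adjusted p = 0.827). The Dsg2 probes thus shared their sign but not their size. For Dsg2 ILMN_1242566 the difference was -1.08 without the arrays with Ucp1 over 100 (adjusted p = 0.0548), which include LA het 2. Leaving out LA het 2 gave -1.21 (adjusted p = 0.00527) and leaving out RA het 4 gave -1.18 (adjusted p = 0.0259), both past the threshold. These were the heterozygous arrays with the highest signal of their side, so leaving either out was bound to enlarge the difference. The probe passed in 4 of 36 alternatives.

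In the group of cell junction genes, Dsg2 stands by its brightest probe, ILMN_1221153. Of 15 gap junction and desmosome genes tested, 1 was higher (4.64% of all genes) and 1 lower (2.77%) at an unadjusted p under 0.05. The lower one was Dsg2 (-0.34). The higher one was Cdh2, N-cadherin of the intercalated disc, with a log2 difference of 0.76 (SE 0.20, adjusted p = 0.394), equal in LA (0.76) and RA (0.77). Its signals were low, at 53.5, 15.4, 39, 26.2 and 51.4 in LA het, 56.2, 28.4, 30.3, 38.1 and 61.4 in RA het, 18.5, 5.7, 18.9, 28.3 and 5.3 in LA wt, and 0.4, 36.7, 31.4, 19.1 and 14.5 in RA wt. The genotypes overlapped on both sides. Pkp2, Jup and the connexin genes Gja1 and Gja5, partners in the same junctions, had differences of -0.09, 0.04, -0.10 and -0.15, with unadjusted p of 0.255 or more.

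Among named genes, the 12 of smallest p in the lower direction had log2 differences from -0.25 to -2.04 and adjusted p from 0.170 to 0.316. Fgfbp1, a secreted carrier that releases fibroblast growth factors from the matrix, had the largest. Its signals were 17.1, 286.4, 2.3, 34.6 and 28.3 in LA het against 224.2, 275.7, 261.6, 244.5 and 379.3 in LA wt. In RA they were 13.6, 2.2, 47.4, 113.4 and -5 in het against 91.4, 109.7, 124.4, 78.8 and 96.1 in wt. LA het 2 and RA het 4 lay within the wild-type values of their side, and the other 8 heterozygous arrays lay below them. The log2 difference was -2.04 (SE 0.41, adjusted p = 0.170), or 4.11-fold lower, with -2.45 in LA and -1.63 in RA. It passed the threshold without LA het 2 (-2.31, adjusted p = 0.0177) and without RA het 4 (-2.28, adjusted p = 0.0371). Leaving out either of these arrays was bound to enlarge the difference, since both lay within the wild-type values. Fgfbp1 passed in 2 of 35 alternatives.

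Rimkla, which joins N-acetylaspartate and glutamate, had the most even difference, at -0.66 in both atria (SE of the common difference 0.13, adjusted p = 0.170). Its signals were 121.9, 82.4, 83.5, 86.8 and 111.9 in LA het and 150.3, 237.2, 172.2, 97.8 and 180.6 in LA wt. In RA they were 93.4, 110.8, 124.3, 118.2 and 110.6 in het and 250.2, 201.2, 117.1, 170.2 and 214.3 in wt. One low wild-type array on each side, LA wt 4 and RA wt 3, overlapped the heterozygotes. Its other tested probe gave -0.75 (adjusted p = 0.222), and without LA wt 4 the difference was -0.74 and passed the threshold (adjusted p = 0.0448). LA wt 4 was the lowest LA wild type, so leaving it out was bound to enlarge the difference. Rimkla passed in 1 of 36 alternatives.

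Shisa2, which retains Wnt and FGF receptors in the endoplasmic reticulum, had signals of 161.2, 164.4, 159.2, 202 and 152.1 in LA het against 262.5, 313.5, 238.2, 210.2 and 376.6 in LA wt. For RA the signals were 188.5, 311.2, 246.2, 248.9 and 345.3 in het against 339.2, 456.8, 499.4, 411.9 and 291.5 in wt. The genotypes did not overlap in LA and overlapped in RA, and the log2 difference was -0.61 (SE 0.12, adjusted p = 0.170), with -0.46 for its other probe. Efhd2, a calcium-binding regulator of actin, gave -0.83 (SE 0.16, adjusted p = 0.170) from dim signals, -3 to 21.3 in the heterozygotes and 15.3 to 46.1 in the wild types, and was detected on 2 of 10 against 8 of 10 arrays. Aktip, a partner of the kinase AKT, gave -0.56 (SE 0.11), with LA het arrays at 72.9 to 123.4 and LA wt arrays at 121.5 to 196.

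Lonrf3, a RING finger protein, had a difference of -0.45 (SE 0.09, adjusted p = 0.170), but a second, dimmer probe of the gene gave 0.22 (adjusted p = 0.792), so its probes disagree in sign. Its difference was larger in LA (-0.63) than in RA (-0.28), with an unadjusted interaction p of 0.0418 (limma) that did not pass after adjustment. Socs5, a suppressor of cytokine signalling, had a small and even difference of -0.28 (SE 0.06, adjusted p = 0.205): its heterozygous arrays ran from 500.9 to 644 and its wild-type arrays from 638 to 761, so that 9 of 10 heterozygous arrays lay below all wild types. Lrrc75a gave -0.25 (SE 0.055) and Tns3, a focal adhesion tensin, -0.28 (SE 0.065), also with 9 of 10 arrays below the wild types of their side. The other tested Tns3 probes, both dim, gave -0.19 and -0.20, with adjusted p of 0.866 and 0.852.

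Mex3d, an RNA-binding ubiquitin ligase, was detected on 0 of 10 heterozygous and 7 of 10 wild-type arrays, so the difference is bounded as at least 1.03-fold lower in the heterozygotes (fitted adjusted p = 0.221). Arhgef26, an exchange factor for small GTPases, gave -0.50 (SE 0.12). Cst9, a cystatin, gave -0.81 (SE 0.20), from RA het signals of 102.2, 82, 43.9, 24.7 and 81.3 against RA wt signals of 184.6, 145.8, 86.5, 155.6 and 123.3. Its LA signals were 36.8 or lower in both genotypes, detected on 0 LA het arrays and 1 LA wt array. The common value is therefore a fitted one, and the measured difference is that of RA (-0.97).

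**Figure D2:**
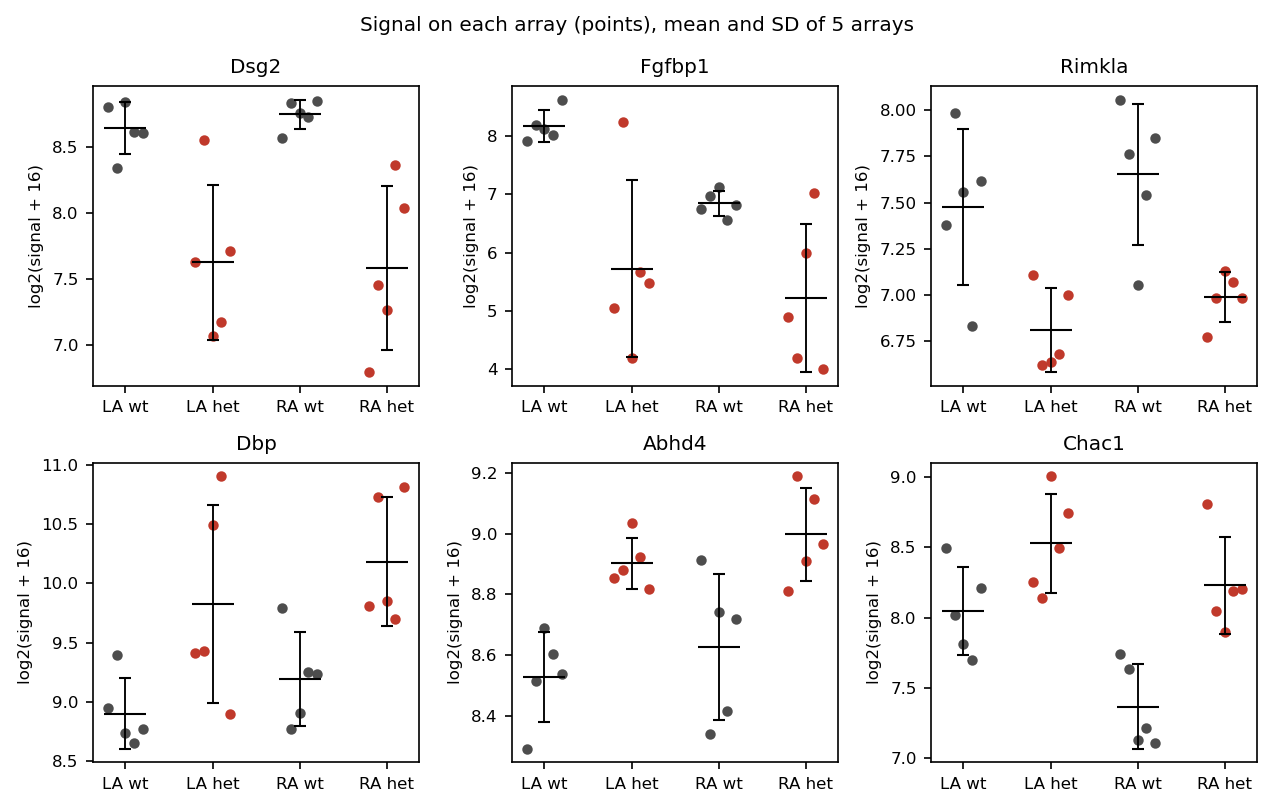
Signals of 6 genes on each array, as log2 of the signal plus 16 on the vertical axis, for the 4 groups, with grey points for wild-type and red points for heterozygous arrays and bars for the mean and SD of 5 arrays (Dsg2 by probe ILMN_1242566). For Fgfbp1, 1 heterozygous array of LA (286.4) and 1 of RA (113.4) lie among the wild types, and for Dsg2 1 of LA (359.3) does, while Abhd4, Chac1 and Dbp lie higher in the heterozygotes with some overlap.

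The 12 genes of smallest p in the higher direction had log2 differences from 0.37 to 0.96 and adjusted p from 0.205 to 0.294. Abhd4, a lipase that acts on N-acylated phospholipids, led them. Its signals were 446.3, 455.3, 509.4, 470 and 434.9 in LA het against 297.1, 349.8, 396.5, 373.3 and 355.3 in LA wt, with no overlap. The RA signals were 433.3, 568.2, 465.4, 537.9 and 484.5 in het against 465.8, 307.7, 411.9, 325.3 and 405.8 in wt, where RA wt 1 lay above 2 of the heterozygous arrays. The log2 difference was 0.37 (SE 0.08, adjusted p = 0.205), equal in both atria. The 2 largest differences after Dbp, which is described with the clock genes, were Lrat, which esterifies retinol, at 0.72 (SE 0.17) and Chac1, which degrades glutathione and is a known target of the transcription factor ATF4, at 0.67 (SE 0.14).

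Chac1 had signals of 289.5, 265.3, 497.9, 344 and 413.1 in LA het and 344.2, 243, 209, 192.1 and 279.6 in LA wt. In RA it had 432.1, 248.2, 222.9, 276.2 and 278.1 in het and 198.3, 183.1, 123.9, 132.6 and 122.2 in wt. The genotypes overlapped in LA and did not overlap in RA. Tha1, threonine aldolase, gave 0.41 (SE 0.085, adjusted p = 0.205) and Shmt1, cytosolic serine hydroxymethyltransferase, 0.47 (SE 0.10, adjusted p = 0.222). Shmt1 signals were dim, from 27.3 to 51.9 in the heterozygotes and from 14.4 to 33.7 in the wild types. Sprr1a, a small proline-rich protein that stressed cardiomyocytes are known to make, gave 0.47 (SE 0.10) and was detected on 9 of 10 heterozygous and 4 of 10 wild-type arrays.

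The remaining higher genes were Slc1a7, a glutamate transporter (0.51, SE 0.11), F2rl3, the thrombin receptor PAR4 (0.49, SE 0.11), Inca1, an inhibitor of cyclin-dependent kinases (0.41, SE 0.09), Vasp, which promotes actin filament growth (0.37, SE 0.09), and Ece2, an endothelin-converting enzyme (0.37, SE 0.08). Between 5 and 9 of the 10 heterozygous arrays lay beyond the wild-type range of their side for each of these 24 genes. The choice by smallest p of the same comparison favours such counts. The share over all genes was not counted, so they are a description only. A second Ece2 probe gave 0.27 (adjusted p = 0.707). The 24 genes lie on 12 different chromosomes.

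Genes of the circadian clock had the highest share of members past an unadjusted p of 0.05 among the 41 gene lists. The clock is a feedback loop in which the activators Clock and Arntl (BMAL1) drive Per, Cry, Nr1d and PAR bZIP genes through E-box sequences, and the Nr1d1 and Nr1d2 proteins (REV-ERB) repress Arntl in turn. Of 13 clock genes tested, 7 had a p under 0.05 with a higher mean in the heterozygotes, against 4.64% of all genes, and 1 with a lower mean, against 2.77%. The list's median log2 difference was 0.31, with 0.28 in LA and 0.29 in RA. None passed the test over all probes. Without the 4 arrays with Ucp1 over 100 the counts were 8 higher (3.11% of all genes) and 1 lower (2.24%), and the median was 0.36. All 13 are named here, a choice made after their values were seen.

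The E-box is shown in the RefSeq promoter sequence (GRCm38.p6) of the 3 clock genes that hold it within the 250 bases upstream of an annotated start, Per1, Ciart and Tef, because the activators of the loop bind it. Each line is 5′ to 3′ on the strand of the gene, with the E-box in capitals and 30 bases on either side.
Per1 at chr11:69098753-69098818 (plus strand): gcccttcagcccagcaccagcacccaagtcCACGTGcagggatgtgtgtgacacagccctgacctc
Ciart at chr3:95882309-95882374 (minus strand): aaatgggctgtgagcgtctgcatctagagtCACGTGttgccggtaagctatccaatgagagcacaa
Tef at chr15:81802516-81802581 (plus strand): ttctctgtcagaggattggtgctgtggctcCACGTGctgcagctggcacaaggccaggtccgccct
The letters CACGTG, which read the same on both strands, occur in this window in 3 of the 11 tested clock genes with a promoter entry, in 2 of 21 leading genes (Slc1a7 and Lonrf3), and in 6.86% of the 27025 genes with a promoter entry (6.02% of 32851 promoters). The 250 upstream bases of Ciart hold 3 copies, of which 1 lies in the stretch shown. A second promoter entry of Tef also holds 1 copy and is not shown. A match or its absence describes these windows only.

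Dbp, a PAR bZIP activator that is a classic output of the loop, had the largest clock difference. Its signals were 665.4, 671.8, 1425.2, 1903.6 and 460.6 in LA het against 476.4, 658.6, 410.9, 385.4 and 421.2 in LA wt. Its RA signals were 881, 1686.5, 909.5, 815 and 1789 in het against 870.4, 419.3, 462.6, 594.5 and 586.8 in wt. The genotypes overlapped slightly on both sides, and the heterozygotes spread more widely. The log2 difference was 0.96 (SE 0.22, adjusted p = 0.294), or 1.94-fold higher.

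Genes of the repressor limb also had positive differences. Per1, whose E-box is shown above, gave 0.59 (SE 0.21), from 323.2 to 569.8 in LA het and 123 to 535.1 in LA wt. Per2 gave 0.42 (SE 0.15), Nr1d1 0.39 (SE 0.13) and Nr1d2 0.42 (SE 0.18). Ciart, a repressor of Clock and Arntl, gave 0.47 (SE 0.19) from signals of 43.6 or lower on every array. Bhlhe40, which competes for E-boxes, gave 0.31 (SE 0.13). These 7 genes, Dbp included, had unadjusted p from 0.000356 to 0.0287.

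Arntl differed the other way. Its signals were 559.7, 684.8, 552, 473.4 and 886.4 in LA het against 750.3, 776.1, 844.5, 781.4 and 807.1 in LA wt. On the right they were 527.6, 538.4, 555.9, 623.9 and 570.7 in het against 623.1, 664.4, 625.1, 750.3 and 913.7 in wt. Only LA het 5 exceeded the wild-type LA arrays, and in RA the genotypes overlapped by less than 1 signal unit. The log2 difference was -0.34 (SE 0.09, adjusted p = 0.427), with -0.35 in LA and -0.32 in RA. The remaining clock genes had p over 0.05: Tef at 0.17, Usp2 at 0.16, Cry2 at 0.09, Rora at -0.07 and Clock itself at -0.12. No clock gene had an interaction p under 0.132, so a difference between the sides was not detected for any of them. The labels give no collection time for the mice, and its part in these values was not tested.

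**Figure D3:**
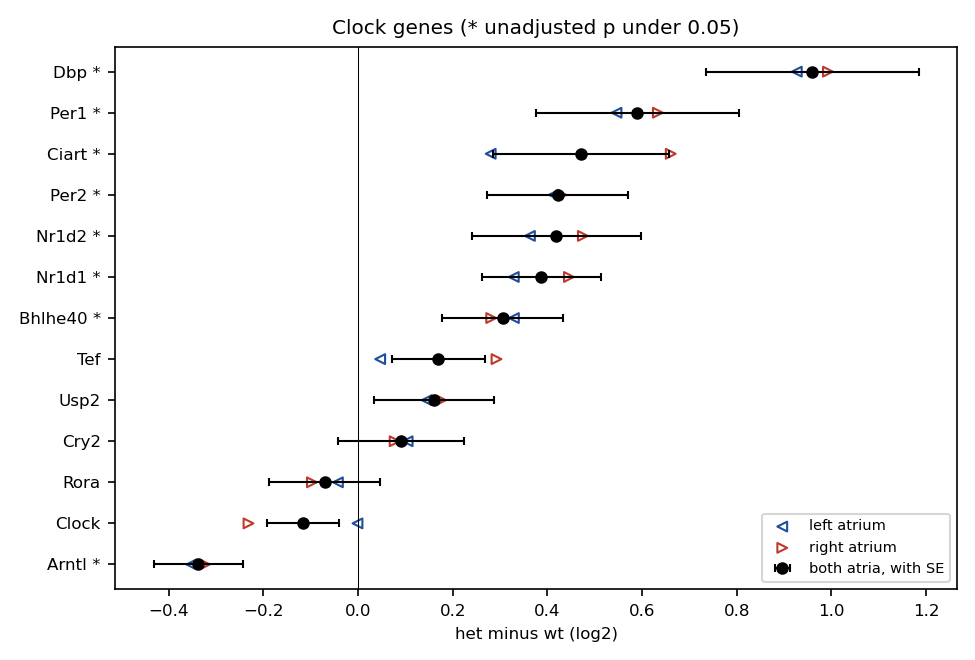
Heterozygous minus wild-type log2 difference of the 13 tested clock genes, as filled circles with SE for both atria together and open triangles for LA and RA alone. Dbp stands at 0.96 and Arntl at -0.34, and the LA and RA values of most genes lie close to each other.

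Of 21 macrophage genes tested, 20 had a positive difference and 6 a p under 0.05 with a higher mean (4.64% of all genes), among them Cx3cr1, the fractalkine receptor (0.50, SE 0.18), Vsig4, a complement receptor of resident macrophages (0.77, SE 0.28), and Cd207, a C-type lectin (0.73, SE 0.27). The list's median was 0.17, with 0.32 in LA and 0.0029 in RA. The differences of these 3 genes came mainly from LA. Vsig4 differed by 1.63 in LA and -0.08 in RA, Cd207 by 1.47 and 0.0029, and Cx3cr1 by 0.85 and 0.14. Their unadjusted interaction p (limma) were 0.000842, 0.00445 and 0.0463, and none passed after adjustment. The summed signal of 6 macrophage markers ranged from 2303.4 to 3142.5 in LA het and 1689.4 to 2301.3 in LA wt, and from 3744.9 to 6277.5 in RA het and 4468.1 to 5415.8 in RA wt. In whole tissue, more cells of a type and more RNA per cell cannot be told apart. With the arrays with Ucp1 over 100 left out, 1 macrophage gene had an unadjusted p under 0.05 with a higher mean (3.11% of all genes). The median was then 0.10. The LA het group of that fit held only LA het 3 and LA het 5, and fewer arrays alone can lower such a count.

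Of 18 chemokine genes tested, 17 had a positive difference and 4 a p under 0.05 with a higher mean (4.64% of all genes), with a median of 0.21 (0.25 in LA and 0.19 in RA). Ccl6, a myeloid chemoattractant, gave 0.48 (SE 0.12, adjusted p = 0.323). Its signals were 36.1, 80.6, 64.9, 37.5 and 48.8 in LA het against 37.2, 33.1, 26, 26.7 and 28.8 in LA wt. For RA the signals were 128.4, 84.9, 84, 63.6 and 98.2 in het against 88, 62.2, 61.2, 53.5 and 58.9 in wt. On each side 1 wild-type array overlapped the heterozygotes. Ccl5, a T cell attractant, gave 0.58 (SE 0.22) and Ccl9 0.48 (SE 0.23). Cxcl13, a B cell attractant, gave 1.10 (SE 0.28), but this was 2.03 in LA and 0.18 in RA. Leaving out the arrays with Ucp1 over 100, 4 chemokines had such a p (3.11% of all genes) and the median was 0.15. B and T cell genes had 1 of 7 past it, Nkg7 (0.38), MHC class II genes 0 of 8 and interferon response genes 0 of 16.

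Genes of the epicardium, the mesothelial cover of the heart, were the group with the most negative median. Of 13 tested, 12 had a negative difference and 5 a p under 0.05 with a lower mean, against 2.77% of all genes, and the median was -0.30 (-0.51 in LA and -0.09 in RA). Gpm6a, a membrane glycoprotein, gave -0.42 (SE 0.15), Bnc1, the zinc finger factor basonuclin, -0.39 (SE 0.15), and Lrrn4 -0.47 (SE 0.18). Upk3b, an uroplakin of mesothelium, gave -0.39 and Krt19, a keratin, -0.33. Signals of Gpm6a ran from 858.6 to 2077.9 in LA het and from 2066.3 to 3153.5 in LA wt, with a narrow overlap, and from 1249.6 to 2071.2 in RA het and from 1600.5 to 2638.1 in RA wt, where the genotypes overlapped widely. The summed signal of 6 epicardial markers ranged from 1391.1 to 4757.4 in LA het and 3791.1 to 5892.9 in LA wt, and from 3556.8 to 6484.3 in RA het and 4553.9 to 6069.6 in RA wt, overlapping on both sides. These markers include members of the list, so the sum is no separate measure. On the 16 arrays with little Ucp1, 4 of 13 had such a p (2.24% of all genes) and the median was -0.26.

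White adipocyte genes had a median of 0.49 over 16 tested, with 2 past p 0.05, Pparg (0.65) and Lipe (0.46), but the LA median was 1.08 and the RA median -0.0054. The summed signal of white adipocyte markers ranged from 28145.5 to 38835.7 in LA het and 23200.3 to 29514.9 in LA wt, and from 17842.7 to 29526.7 in RA het and 22501.7 to 28055.9 in RA wt, with Retn detected nowhere. Of these markers only Fabp4, also a member of the endothelial list, and Lpl were detected on all 20 arrays. The sum is therefore no specific measure of white fat. The part of white adipocytes in the result was not tested. Without the arrays with Ucp1 over 100, which include LA het 1, LA het 2 and LA het 4, the median was -0.22. There, 0 were higher past that p (3.11% of all genes). Of 9 brown adipocyte genes tested, Cidea (1.19) and Dio2 (0.53) were past it, and 0 without those arrays. The brown adipocyte markers summed to 205.9 to 3777.5 in LA het and 149.6 to 241.9 in LA wt.

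Of 10 fast skeletal muscle genes tested, 9 had a positive common difference, with 6 of 10 positive in LA (median 0.08) and 8 of 10 in RA (median 0.55). There were 2 with a p under 0.05 (4.64% of all genes), Pvalb, the fast-fibre calcium buffer parvalbumin, at 1.27 (SE 0.32, adjusted p = 0.323), and Atp2a1, the fast-fibre calcium pump SERCA1, at 1.14 (SE 0.39). Pvalb signals were 130.7, 163.4, 47.9, 102.6 and 33.6 in LA het and 33.8, 22.5, 17.7, 55.8 and 21.5 in LA wt. The RA signals were 458.2, 315.8, 216.9, 713.8 and 70.2 in het and 58.1, 145.9, 170.6, 99.6 and 61.7 in wt. In LA 3 of 5 and in RA 4 of 5 heterozygous arrays lay above all wild types of their side. The summed signal of 4 skeletal muscle markers ranged from 345.7 to 1392 in LA het and 562.9 to 1081.4 in LA wt, and from 224 to 1627.3 in RA het and 170.4 to 330.7 in RA wt. Without the arrays with Ucp1 over 100, 3 of 10 had such a p (3.11% of all genes) and the median of the common difference was 0.40, against 0.33 on all arrays.

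Among the lists of conduction, excitability and contraction given here, only the potassium channels had members past an unadjusted p of 0.05. A p over 0.05 does not show that a gene is unchanged. Of 13 ion channel and node genes, 0 had a p under 0.05 and the median was -0.023. Among them Gja1, a connexin, gave -0.10, Ryr2, the calcium release channel, -0.08, and Nppa, the atrial natriuretic peptide, 0.0073. Sodium, calcium and pacemaker channels had 0 of 13 past that p and sarcomere genes 0 of 23. Of 20 potassium channel genes, 3 had such a p with a higher mean (4.64% of all genes). Kcna5, the ultrarapid atrial potassium channel, gave 0.40 (SE 0.12, adjusted p = 0.476), from 145.3, 148, 186.9, 144.1 and 193.6 in LA het against 81.1, 147.8, 86.9, 124.7 and 141.2 in LA wt. In RA its signals were 69.6, 103.3, 125.4, 140.9 and 134.6 in het against 84.9, 108.6, 84.8, 74.8 and 76.4 in wt. All but 1 LA wt array lay below the LA het arrays, and in RA 3 of 5 heterozygous arrays lay above all wild types. Abcc9, a subunit of the ATP-sensitive channel, and Kcnk2, a mechanosensitive channel, gave 0.35 each.

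The counts of signalling, transcription factor and matrix genes past an unadjusted p of 0.05 are set against the shares of all genes. Those were 4.64% with a higher mean and 2.77% with a lower mean. Of 18 left-right and cardiac transcription factors, 1 was past that p, the Notch target Heyl (-0.18). Of 19 BMP, TGF-beta and activin genes, 3 were past it: Ltbp1, which tethers latent TGF-beta in the matrix (0.37, SE 0.11), Bmp6 (-0.45, SE 0.14) and the receptor gene Acvrl1 (-0.18). Of 21 Wnt genes, 1 was past it, the receptor gene Fzd5, at -0.31 (SE 0.08, adjusted p = 0.361), with -0.33 in LA and -0.29 in RA. Fzd5 signals were 225.6 to 310.4 in LA het against 296.4 to 368.6 in LA wt, and 176.1 to 252.8 in RA het against 208.4 to 277.9 in RA wt, overlapping on both sides. Of 29 matrix genes, 3 were past it: Col4a1, a basement membrane collagen (0.37, SE 0.09, adjusted p = 0.323), Timp1, a protease inhibitor (0.49), and Mmp3, a matrix protease (-0.68).

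Of 21 heat shock and unfolded protein response genes, 16 had a negative difference, 4 had a p under 0.05 with a lower mean (2.77% of all genes) and 1, Chac1, with a higher mean, and the median was -0.10. The chaperone genes Hspa1b, Hsp90aa1 and Hsp90b1 gave -0.43, -0.21 and -0.16, and Xbp1, the transcription factor of the unfolded protein response, -0.16. Atf4 and its targets Ddit3 and Trib3 gave -0.08, -0.14 and -0.05, none past that p. Without the arrays with Ucp1 over 100, 0 were lower past it (2.24% of all genes) and the median was -0.09. Of 17 immediate early genes, Egr1 (-0.64) was past it, and of 16 hypoxia genes Ndrg1 (-0.22) and Ankrd37 (0.36) were.

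Oxidative phosphorylation had 0 of 36 genes past p 0.05 and a median of 0.0094, cytosolic ribosomal proteins 0 of 30 and 0.0051, and glycolysis 0 of 18 and 0.0275. Of 27 fatty acid oxidation genes, Pdk4, which limits pyruvate oxidation, gave 0.42 and Acads, a short-chain acyl-CoA dehydrogenase, 0.20. Of 14 cell cycle genes, Birc5 (0.37), Cdca8 (0.38) and Mcm5 (0.18) were past that p with higher means (4.64% of all genes), at similar size on both sides. In all, 30 of the 41 lists had a median within 0.1 of 0, and 11 had no member past that p.

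**Figure D4:**
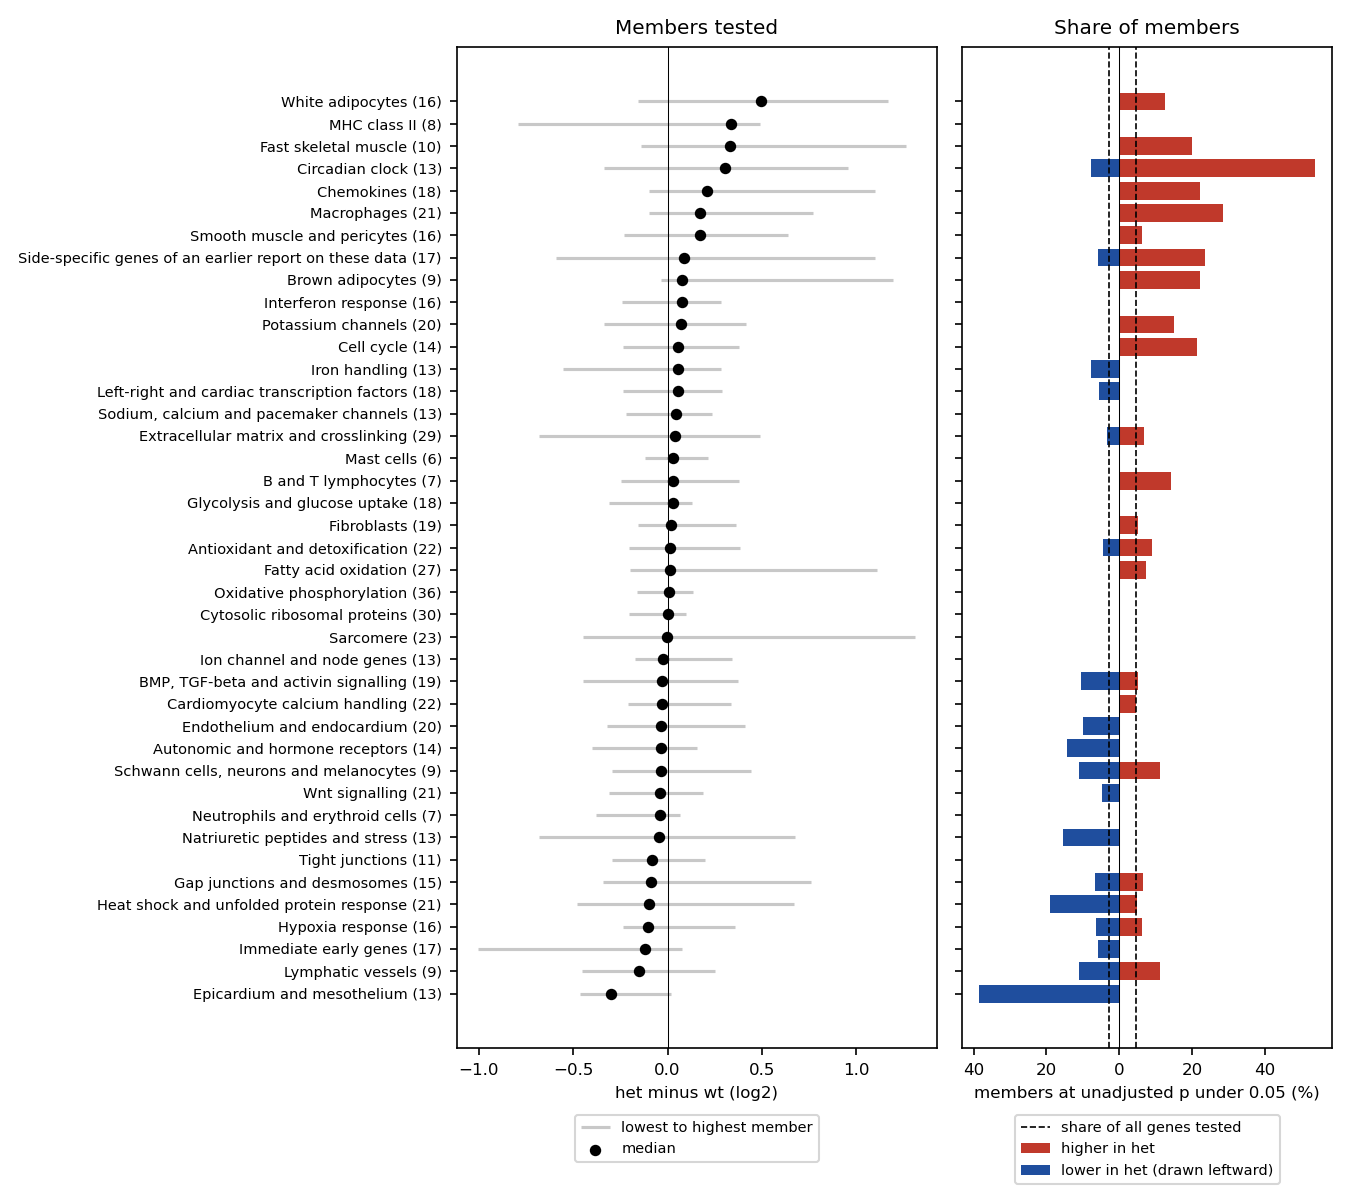
Left, median (black point) and range of members (grey line) of the heterozygous minus wild-type log2 difference for 41 gene lists, with the number of tested members in brackets. Right, the percentage of members at an unadjusted p under 0.05, red for higher and blue, drawn leftward, for lower in the heterozygotes, with dashed lines at 4.64% and 2.77%, the shares of all genes. The clock list has the longest red bar and the epicardial list, with a median of -0.30, the longest blue bar.

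Differences between the sides were tested so that a value from 1 atrium is not read as common. The 5 probes of smallest interaction p were 2 unnamed probes and those of Arpp21, Rprm and Cxcl13. Probe ILMN_3118071 had signals of 835.1, 439, 439, 463.9 and 435.1 in RA het against 25.3, 37.2, 17.9, 18.2 and 22.9 in RA wt, while its LA signals ran from 1134.5 to 1609.8 in both genotypes. Its genotype difference was 3.71 in RA and -0.10 in LA (interaction adjusted p = 2.29e-08). Probe ILMN_1220244 was detected on 0 RA wt arrays, so its signal in RA het was at least 3.48-fold higher, while the LA difference was -0.03 (interaction adjusted p = 3.64e-06). Arpp21, a cAMP-regulated phosphoprotein, was detected on 0 LA wt arrays and was at least 1.44-fold higher in LA het, with a difference of -0.14 in RA (interaction adjusted p = 0.0889). Rprm, a cell cycle regulator, gave -0.86 in LA. It was detected on 0 RA arrays, so no RA difference is given.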

How the data were processed

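RNA isolation used RNeasy and labelling the TotalPrep kit, per the labels' protocols, with quality read from a Bioanalyser. The deposited intensities are linear, with 33.7% to 33.9% of each array's values below 0 and sorted values equal within 1.8 units between arrays, so the authors had subtracted a background and quantile-normalized; their software is not given in the sources used here. A second deposited table is identical (largest difference 0). In the columns of detection p-values that the authors deposited, the values are 1 minus p, and they were turned around.

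Values were taken as log2 of the deposited intensity, floored at 0, plus 16, which understates differences of dim probes. Probes were kept if 5 or more arrays detected them at p under 0.05, and tested with limma 3.58.1 in R 4.3.3 (lmFit, eBayes) on side and genotype over all 20 arrays, adjusted by Benjamini-Hochberg over 20097 probes. A fit of 4 group means gave LA, RA and interaction values. Gene names come from the platform annotation (34885 probes with 1 symbol, 18 with several, 10378 with none here); the tested probe with the highest mean stands for its gene. The tests were checked on simulated data. The number of arrays limits the precision.

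Members and lists were chosen with earlier results of these data known. The rule for named genes took the 12 genes of smallest p in each direction, up to 3 members per list that were not called, and the 5 smallest interaction p; lists with more members named were widened after their values were seen. The list of side-specific genes of an earlier report, with 4 of 17 higher and 1 lower at p under 0.05, was chosen on these samples. A fold against a group that detects a probe on no array is a bound against the higher of the lowest detected signal and the probe's own. Promoters are RefSeq's (GRCm38.p6). The level of the targeted gene is not reported here.

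The labels do not say that replicate numbers pair LA and RA arrays. Same-numbered arrays of a genotype correlated between -0.405 and 0.335 in their deviations from group means, over 0.1 in 3 of 10 pairs. These values give no sign of pairing by number. They cannot exclude it, because it is not known how strongly the atria of a mouse correlate here. Alternatives covered the offset, background correction, normalization, filter, model, weights, blocks, arrays left out and carried tissue.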

Additional observations from a re-analysis of the deposited data

Results flagged for a closer look

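Of 184 gene and group combinations tested, 11 held an array far from the other 4 of its group, and chance alone flags about 1 in 20. Among clock genes, Bhlhe40 was high on RA wt 4 (1775.9, the others 1333.3 to 1438.1), Clock low on LA het 5 (1301.9, the others 1425.9 to 1464.6) and Cry2 low on RA wt 1 (21.3, the others 55.5 to 61.5). Among genes with higher means, Inca1 was high on LA wt 4 (87.3, the others 51.1 to 59.6), Vasp high on LA het 5 (30.3, the others 23.4 to 24.5) and Lrat low on RA het 2 (26.1, the others 52.1 to 65.3). Among genes with lower means, LA het 4 stood apart both for Lonrf3 (49.1, the others 80.9 to 82.7) and for Shisa2 (202, the others 152.1 to 164.4), and RA wt 4 for Zfp36l1 (6122.9, the others 5494.5 to 5642.4). Cxcl13 was high on LA wt 4 (22.5, the others 2.8 to 5.6) and ILMN_3118071 on RA het 1 (835.1, the others 435.1 to 463.9).

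For 2 unnamed probes the genotype difference itself differed between the atria by the interaction test. The LA minus RA difference was -3.81 for ILMN_3118071 (SE 0.24, adjusted p = 2.29e-08) and -2.68 for ILMN_1220244 (SE 0.23, adjusted p = 3.64e-06). The second is a fitted value and no exact size, since 0 RA wt arrays detected that probe.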

How the results depend on the processing

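The count of probes passing the test for the common effect, 0, was also 0 with an offset of 4, neqc, cyclic loess, the second table, all 3 other filters, genotype without side, trend and robust variances, the arrays with Ucp1 over 100 left out, and Myl2, Adipoq and Upk3b as covariates. It was 2 with an offset of 50 and 2 with array weights (the Dsg2 probes, adjusted p = 0.0471 and 0.0189), and 2 with 4 group means, where these are the unnamed RA probes at 1.81 and 1.31. Leaving out 1 array gave 0 to 3: 3 without LA het replicate 2 and 3 without RA het replicate 4 (Dsg2 and Fgfbp1), and 2 without LA wt replicate 4 (Rimkla and Epc1, the latter at -0.70). With the replicate number as a fixed block, as a replicate block, it was 1 (Efhd2, -0.83, adjusted p = 0.0361), and with a random replicate block 0 (correlation 0.0191); in 2 of 10 comparisons an array correlated best with its own number. For LA the count of 2 was 0 with an offset of 50, 1 with neqc, and 2 to 4 with 1 array left out, 4 without LA het replicate 2; for RA and the interaction no alternative moved it by over 1.5 times. Signs reversed for Rprm with an offset of 4 (0.12), Rora with array weights (0.0237), and with 1 array left out for Rora (-0.1122 to 0.0047) and Cry2 (-7e-04 to 0.1568), all far from the threshold. Over 36 alternatives the clock list had 5 to 9 genes higher and 1 lower at p under 0.05, macrophages 0 to 7 higher, chemokines 3 to 6 higher and the epicardium 0 to 6 lower, with 0 lower when Myl2, Adipoq and Upk3b were covariates, Upk3b being a member. With those covariates the genes at p under 0.05 numbered 297 higher and 175 lower, and the share of higher ones stayed between 57.5% and 65.1% over the alternatives. Dim probes such as Efhd2 depend on the offset: -1.47 with 4 and -0.40 with 50.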

Other observations

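The 10 named genes with the largest differences common to both atria include several that were near 0 on some arrays and clearly present on others; they were chosen after their values were seen. Trim68, a ubiquitin ligase of the TRIM family, had a log2 difference of -1.83 (SE 0.46, adjusted p = 0.323). Its signals were -6.8, -1.3, 109, -0.1 and 155.8 in LA het and 95.7, 79.6, -4.3, -3.4 and -4.2 in RA het, against 83.9 to 157.4 on all wild-type arrays. Gin1, a gene with a domain of retroviral integrases, had a difference of -1.50 (SE 0.48, adjusted p = 0.55). Its signals were 144.4, 3, 147.4, 173.5 and 7.3 in LA het and -4.4, 149.8, 119.7, 6.3 and 134.9 in RA het, against 118.2 to 302.2 on all wild-type arrays. Trim68 was thus near 0 on 3 of 5 heterozygous arrays of each side, and Gin1 on 2 of 5 of each side. LA het 2 and RA het 4 were the heterozygous arrays on which both were near 0, and they are also the arrays on which Fgfbp1 lay among the wild types of its side and on which the Dsg2 signal of ILMN_1242566 was the highest of its heterozygous group (359.3 and 313.7). The labels do not say whether these arrays came from 1 mouse.

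Gdpd3, a glycerophosphodiester phosphodiesterase, had the opposite form, at 1.80 (SE 0.72, adjusted p = 0.696). Its signals were 424.2, 720.1, 335.9, 15.4 and 29 in LA het and 50.1, 323.2, 416.4, 835.7 and 18.7 in RA het, so that 3 of 5 arrays of each side were over 300, and 1 of 5 wild-type arrays of each side was too (385.1 in LA and 321.8 in RA). Scgb1a1, the secretoglobin of airway club cells, was detected on 0 heterozygous arrays and was at least 2.62-fold lower there (fitted adjusted p = 0.529). It was at 4.7 or lower on all heterozygous arrays and at 173.2, 2.8, -14, 597.1 and 954.1 in LA wt and -8.6, 7, 741.1, 150.3 and -13.3 in RA wt. Slpi, a secreted protease inhibitor, gave 1.33 (SE 0.37, adjusted p = 0.427), with 1.62 in LA and 1.03 in RA.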
